A study of Mus musculus with 8 samples.

Results

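The genes described here encode transforming growth factor beta 1 (Tgfb1), the integrin chains αv (Itgav) and β8 (Itgb8), the TGF-beta receptors (Tgfbr1, Tgfbr2), the receptor-activated Smads (Smad2, Smad3) and the inhibitors Smad7 and Ski. They were taken by name from the 32285 genes of the single-cell count table, and all 9 were found. Wild-type (WT) and Rnls mutant NIT-1 cells, an insulin-producing line from a NOD mouse beta cell tumor, were injected under the skin of opposite flanks of immunodeficient NOD.scid mice, which 4 days later received splenocytes of recently diabetic NOD mice intravenously. Live CD45+ cells were sorted from the grafts 10 or 17 days after the transfer, tagged per graft with 1 of 4 hashtag antibodies and pooled into 4 libraries, WT day 10, Rnls mutant day 10, WT day 17 and Rnls mutant day 17. Each library held 4 grafts, 16 in all. The Rnls mutation was carried by the injected beta cells and not by the immune cells that were sequenced, the hosts lack T and B cells of their own, and the ages of the hosts and the pairing of grafts by mouse were not given.

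TGF-beta is secreted in a latent complex, and the integrin αvβ8, in which β8 has αv as its only partner chain, is one of the surface proteins that free the active ligand. The freed ligand binds Tgfbr2, which recruits and phosphorylates Tgfbr1; Tgfbr1 then phosphorylates Smad2 and Smad3, which enter the nucleus with Smad4. Smad7, itself a target of the pathway, blocks Tgfbr1, and Ski binds Smads on DNA and recruits co-repressors; in autoimmunity the pathway is best known for restraining T cells and for the function of regulatory T cells (Treg).

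The table held 22441 cells with at least 1001 and a median of 3520 UMIs (unique molecular identifiers, each counting 1 captured RNA molecule). Graft totals ran from 1742746 to 9729233 UMIs. The 4 WT day 17 grafts had deeper cells, with medians of 4463 to 7822.5 UMIs against 2881.5 to 3851.5 in the others. Of 22399 barcodes, 42 occurred in more than 1 library. Cell types are those of the deposited annotation, which matched its markers with 2 exceptions that bear on values below. Cells called Stem-Progenitor had the highest levels of all 3 cycling markers, and ILC-1 had the highest level of only 1 of its 5 markers. The labels call the cells beta cells, but the beta cell hormone genes Ins1 and Iapp had no UMI in any type, Chga had 2, and Ins2 had 31, of which 24 lay in Stem-Progenitor cells (2.51 CPM of their pooled UMIs). Each library is 1 genotype at 1 day, so genotype or day and library cannot be told apart, and p-values measure the spread between grafts that shared a library.

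Levels (CPM) are the UMIs of a gene per 1000000 UMIs of a cell type in a graft with at least 10 such cells, and are given as mean ± SD over grafts. They come from 3′ tags, are not divided by gene length and are therefore compared within a gene only.

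Tgfb1 was found in every cell type with enough cells. NK cells had the highest mean level (332 ± 81.0 CPM, n = 16 grafts), followed by ILC-1 (309.8 ± 106, n = 8) and monocytes (295 ± 124, n = 15). In day 17 grafts alone monocytes were highest (396 CPM, 7 grafts). Over all grafts the other types followed. CD4 T cells held 219.8 ± 32.4 CPM, Treg 213 ± 65.9, macrophages 185 ± 39.4 and CD8 T cells 153 ± 31.2. Granulocytes were lowest (89.3 ± 58.0, n = 12). None of the 9 neighbouring pairs in this order of Tgfb1 levels differed by an exact sign-flip permutation test within grafts after adjustment.

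**Figure D1:**
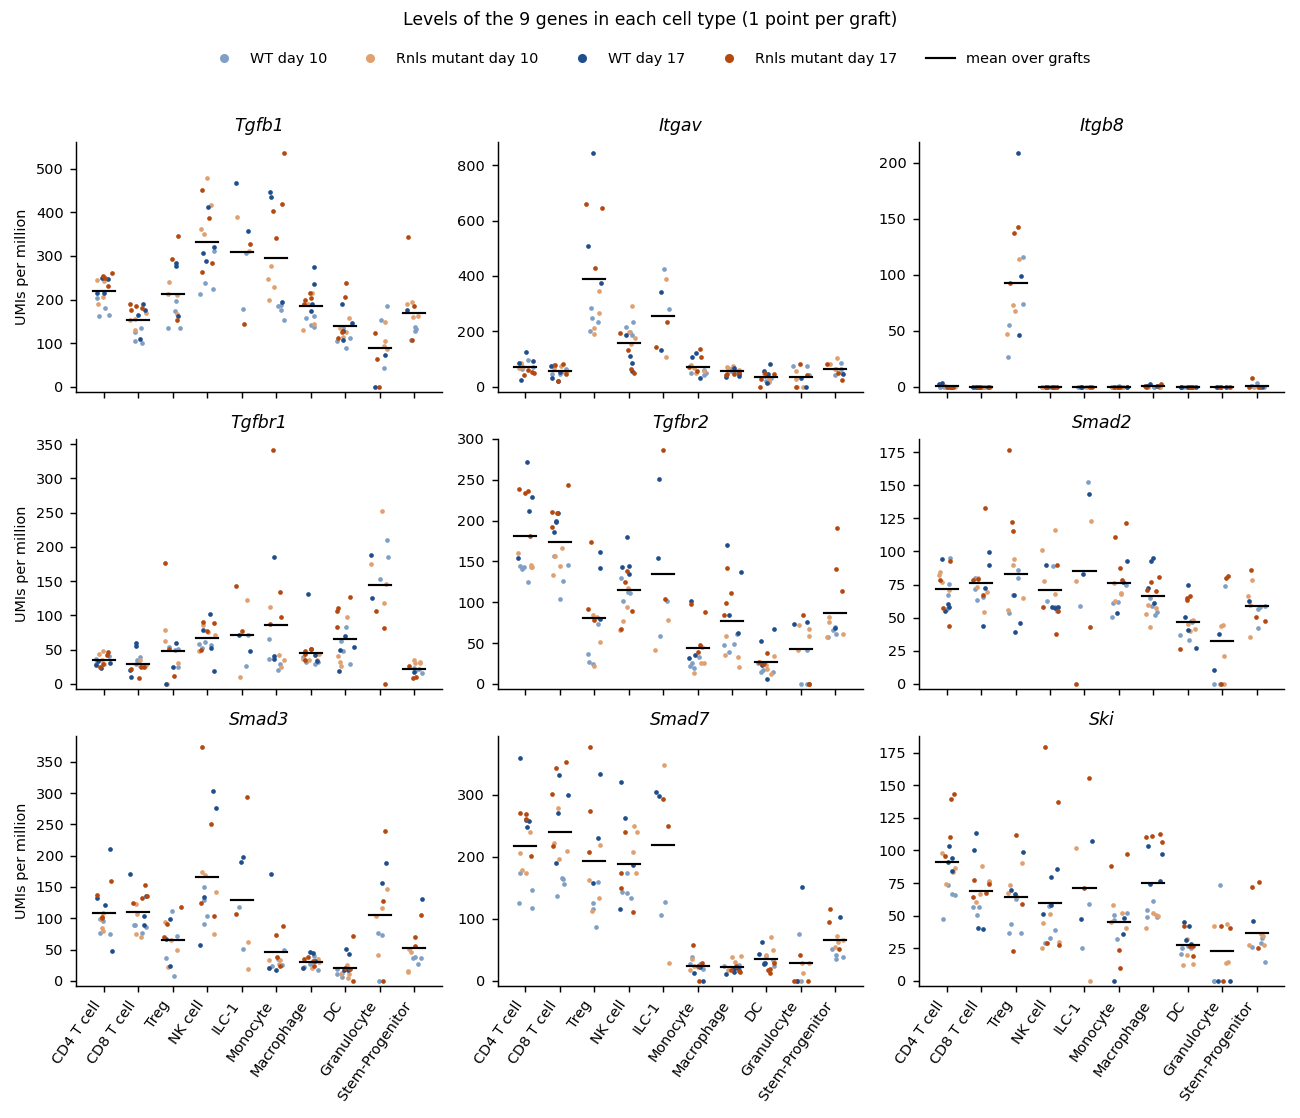
Level of each gene (y axis, CPM of UMIs) in 10 cell types (x axis), 1 point per graft with at least 10 cells of the type, colored by genotype and day, with the mean over grafts as a line. Itgb8 stands at 92.8 CPM on average in Treg and near 0 elsewhere. Smad7 is higher in CD8 T cells, ILC-1, CD4 T cells, Treg and NK cells than in the other types, and Smad2 varies little between types.

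Itgb8 marked Treg. Of 153 Itgb8 UMIs in the table, 127 (83.0%) came from Treg, which held 1.43% of all UMIs. The Treg grafts read 55.1, 74.0, 26.8 and 116 CPM in WT day 10, 73.3, 114, 47.3 and 67.3 in Rnls mutant day 10, 46.2, 209 and 98.5 in WT day 17 and 92.4, 137 and 142 in Rnls mutant day 17. Every Treg graft thus held Itgb8, from 2 to 25 UMIs each, with the 4 groups overlapping. The next type in the order was Stem-Progenitor at 1.09 CPM, lower in 12 of 12 grafts (exact permutation p = 0.000488, adjusted p = 0.0148 over 81 neighbouring pairs of all 9 genes). Its 7 UMIs lay in 5 cells, all 5 with Foxp3, the transcription factor that defines Treg, against 1.94% of the Stem-Progenitor cells without Itgb8. These 5 cells had a median of 23055 UMIs against 9648 in the Stem-Progenitor cells without Itgb8. The part of depth or doublets in this was not tested. Macrophages held 15 Itgb8 UMIs, CD4 T cells 3 and monocytes 1. CD8 T cells, NK cells and dendritic cells (DC) held 0, which allows up to 0.311, 0.717 and 0.364 CPM by counting error alone. After thinning each cell to 1000 UMIs, 9.94% ± 4.90 (SD, n = 14) of Treg cells had an Itgb8 UMI and 26.1% had one of Foxp3; without thinning the Itgb8 share was 18.0%.

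Itgav, the partner chain of Itgb8, was also highest in Treg (389 ± 204 CPM, n = 14), then in ILC-1 (256 ± 122) and NK cells (158 ± 69.4), while the other 7 types lay between 35.1 and 72.4 CPM. In day 10 grafts alone Itgav was highest in ILC-1 (299.8 CPM, 4 grafts), with Treg at 248 CPM. In day 17 grafts alone it was highest in Treg (577 CPM, 6 grafts). No neighbouring pair in its order passed the test; NK cells were above monocytes in 12 of 15 grafts (adjusted p = 0.078, exact permutation). At the level of single cells, 62.8% of the 78 Treg cells with an Itgb8 UMI also had an Itgav UMI, against 41.5% of the Treg cells without. The cells with Itgb8 were also deeper, with a median of 3125.5 UMIs against 2379, and the part of depth in this gap was not tested.

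The receptors had different orders. Tgfbr2, the ligand-binding receptor, was highest in CD4 (181 ± 47.4 CPM) and CD8 T cells (174 ± 38.0), intermediate in ILC-1 (134) and NK cells (114 ± 31.1), and lowest in DC (26.4 ± 15.6). Macrophages (77.1 ± 44.0) exceeded monocytes (43.4) in 13 of 15 grafts (exact permutation, adjusted p = 0.0148), the only neighbouring Tgfbr2 pair that differed. Tgfbr1 had its highest mean in granulocytes (145 ± 65.9) and monocytes (85.7) and its lowest in CD8 T cells (29.5) and Stem-Progenitor cells (22.3), with no neighbouring pair past the test. Within the authors' clusters, Tgfbr1 reached 432 ± 201 CPM in DC cluster 25, where the 4 grafts with at least 10 cells were all WT day 10 grafts of 1 library, and 208 ± 153 (12 grafts) in monocyte cluster 14.

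Smad7 divided the cell types. CD8 T cells (240 ± 71.4 CPM), ILC-1 (219.5 ± 116), CD4 T cells (218 ± 63.9), Treg (193 ± 86.7) and NK cells (189 ± 59.6) did not differ from their neighbours. Below them NK cells exceeded Stem-Progenitor cells (65.7) in 12 of 12 grafts (exact permutation, adjusted p = 0.0148) and Stem-Progenitor cells exceeded DC (34.8) in 11 of 12 (adjusted p = 0.0198, exact permutation). Macrophages held 22.2 ± 8.31 CPM. The Stem-Progenitor cells, lower in Smad7 than T and NK cells, also carried T cell markers, at a summed 1522 to 3929 CPM at day 10 and 3842 to 4836 at day 17. Their NK cell markers summed to 1700 to 12197 CPM at day 10 and 131 to 2973 at day 17. Smad3 was highest in NK cells (166 ± 89.3) and lowest in DC (21.4), and its close relative Smad2 spanned the narrow range from 32.7 CPM in granulocytes to 85.2 in ILC-1. Ski was highest in CD4 T cells (91.1 ± 25.1) and macrophages (74.9). In all, 4 of the 81 neighbouring pairs passed. The type with the highest mean was another for 5 of the 9 genes with at least 20 cells a graft, when ILC-1, left with 2 grafts, led for Tgfb1, Smad3, Smad7 and Ski and Treg for Smad2.

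Over the 141 graft-by-type sums of 10 types, the genes with the most similar profile to Itgb8 were Foxp3 (Pearson r = 0.98), Neb (0.93) and Izumo1r (0.92), and those nearest to Smad7 were Il18r1, Gimap3 and Gimap5 (each 0.88). Tgfbr2 was nearest to Tnrc6c (0.77), Aak1 (0.76) and Arl15 (0.76), and Itgav to Sesn1 (0.73), Ikzf2 (0.71) and Hacd3 (0.68). Tgfb1 had no gene above 0.66, reached by Thrap3 and Acin1, with U2surp at 0.65. For Smad3 the nearest was Hexim1 (0.73), for Smad2 Glg1 (0.68), for Ski Agfg1 (0.67) and for Tgfbr1 Hnrnph2 (0.57). Among the 9 genes the highest pair was Tgfbr2 with Smad7 (0.65) and the lowest Tgfbr1 with Smad7 (-0.27). These sums share libraries and differ in depth, so the correlations are descriptions.

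The comparison of Rnls mutant with WT grafts asked whether the genotype of the beta cells went with the TGF-beta genes of the infiltrating cells beyond NK cells. Of 81 combinations of gene and cell type, 60 passed the low count filter, none of them in granulocytes. In edgeR's quasi-likelihood test none was called at day 10, at day 17, over both days or for the difference between days (adjusted p under 0.05), and none was called by DESeq2, where edgeR called 0.142%, 0.18%, 0.011% and 0.383% of all 45651 gene-by-type tests. At an unadjusted p under 0.05 there were 8 combinations at day 10, 5 at day 17 (background 6.75% of all tests), 7 over both days (background 5.59%) and 6 for the difference between days (background 7.95%). The 8 at day 10 made 13.3% of the tests against 6.32% of all tests, and all 8 were higher in Rnls mutant grafts. The share of higher ones among all tests under that threshold was not counted. The 8 come from Tgfb1, Smad7 and Ski in cell types of the same grafts and are not independent.

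These 8 were Tgfb1 in NK cells, CD4 T cells, CD8 T cells and monocytes, Smad7 in NK cells, CD4 T cells and CD8 T cells, and Ski in CD4 T cells. They were chosen by their edgeR p-values in these grafts, so a lack of overlap or a low permutation p is no separate support. How many of all genes lacked overlap was not counted. Smad7 in CD8 T cells read 165, 166, 137 and 157 CPM in WT day 10 and 279, 209, 197 and 222 in Rnls mutant day 10. The 4 mutant grafts were all above the WT grafts, by a log2 fold change of 0.50 ± 0.13 (SE; adjusted p = 0.0921, edgeR; exact permutation p = 0.0286, the smallest that 70 assignments allow). In NK cells Smad7 read 144, 143, 133 and 174 CPM in WT and 240.5, 174, 208 and 249 in Rnls mutant (log2 fold change 0.57 ± 0.21, adjusted p = 0.761, edgeR). Tgfb1 in the same NK cells had a log2 fold change of 0.68 ± 0.18 (adjusted p = 0.286, edgeR). With each day fitted alone, Smad7 in CD8 T cells (adjusted p = 0.0223, edgeR) and Tgfb1 in NK cells (adjusted p = 0.0243, edgeR) passed, and over all alternatives the adjusted p of Smad7 in CD8 T cells ran up to 0.381.

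Tgfb1 in monocytes read 185, 154, 177 and 187 CPM in WT day 10 and 246, 228, 198 and 277 in Rnls mutant day 10, again without overlap (log2 fold change 0.41 ± 0.19, adjusted p = 1.0, edgeR). In CD8 T cells the Tgfb1 values were 125, 134, 100.3 and 105 CPM against 152, 169.6, 156 and 131, which overlapped (0.35 ± 0.13, adjusted p = 0.398, edgeR). CD4 T cells differed by 0.28 ± 0.11 in Tgfb1 (adjusted p = 0.407, edgeR), 0.47 ± 0.14 in Smad7 (adjusted p = 0.195, edgeR) and 0.37 ± 0.14 in Ski (adjusted p = 0.407, edgeR). Of the 60 log2 fold changes at day 10, 44 were above 0, with a median of 0.10; median shifts of all genes ranged from -0.01 to 0.06 between types.

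**Figure D2:**
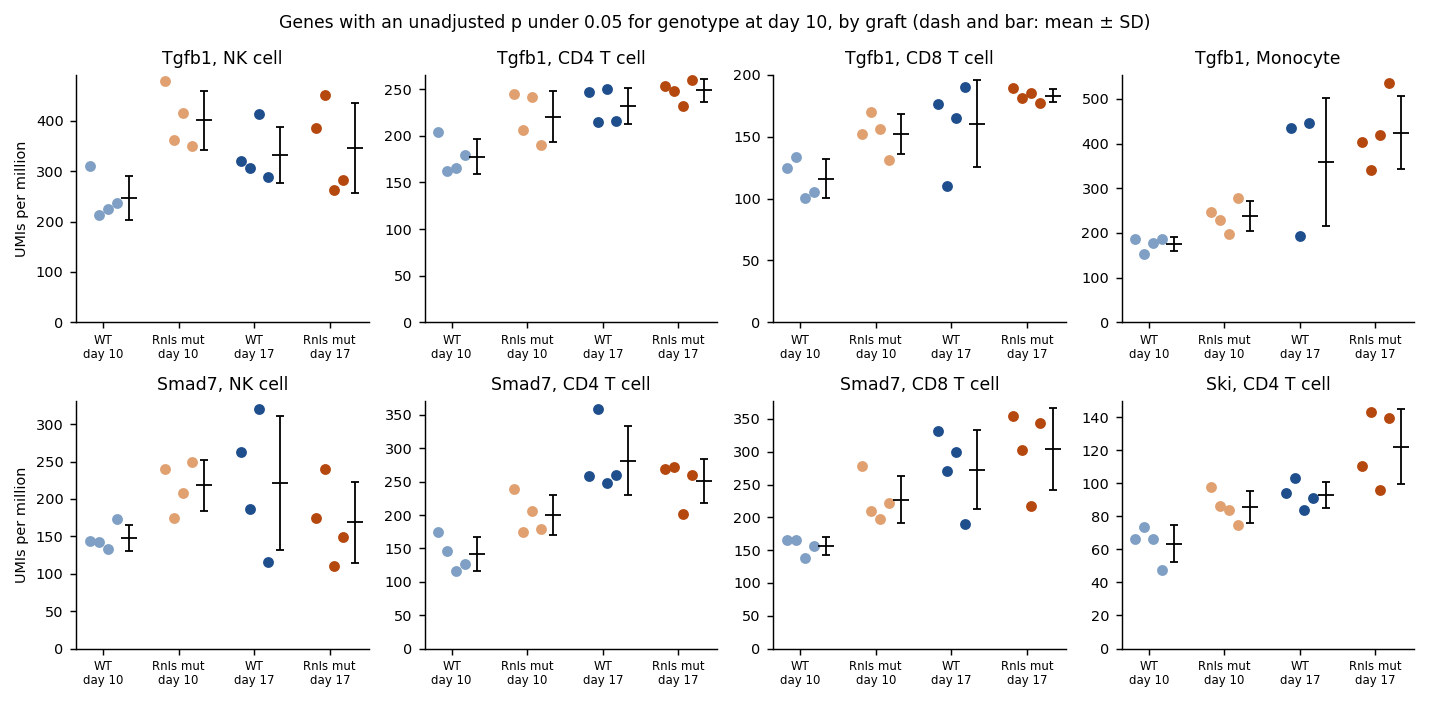
The 8 combinations of gene and cell type with an unadjusted p under 0.05 for genotype at day 10, shown at both days (y axis, CPM of UMIs; 1 point per graft, dash and bar are mean ± SD). The day 10 Rnls mutant grafts lie above the day 10 WT grafts on average in all 8, none of which passed the adjusted threshold.

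At day 17 the 5 lowest p-values were those of Ski in CD4 T cells (log2 fold change 0.40 ± 0.17), Ski in macrophages (0.32 ± 0.12), Tgfbr1 in DC (1.33 ± 0.45), Smad2 in Treg (1.26 ± 0.50) and Smad7 in DC (-0.83 ± 0.38), with adjusted p from 0.344 to 0.837 in edgeR. Ski in macrophages read 97.3, 73.9, 103 and 76.8 CPM in WT day 17 and 110.5, 111, 106 and 113 in Rnls mutant day 17. The mutant grafts were all above, which the choice by p-value in the same grafts favors.

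From day 10 to day 17 the same genes changed more. Of the 60 combinations, 20 were called for day as the mean of both genotypes (33.3%, against 28.0% of all gene-by-type tests, so the share lay near the background), 16 higher and 4 lower at day 17. All 20 had the same sign in both genotypes, which their choice by the mean of both genotypes favors. The same choice favors days that do not overlap, and how many of all genes lacked overlap was not counted. In WT grafts alone 10 of the 60 were called (background 13.3%) and in Rnls mutant grafts alone 8 (background 16.9%). Of these 8, 7 were among the 20, and the other was 1 gene called lower in DC, where WT grafts alone had 0 calls. In both genotypes 5 of the 20 were called. By type, 5 of 8 were called in macrophages (background 50.4%), 4 of 8 in CD4 T cells (36.5%), 3 of 8 in CD8 T cells (21.8%), 3 of 6 in Treg (16.2%), 2 of 8 in monocytes (13.7%) and 1 each in DC (of 8; 26.6%), NK cells (of 8; 13.1%) and ILC-1 (of 6; 15.8%).

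**Figure D3:**
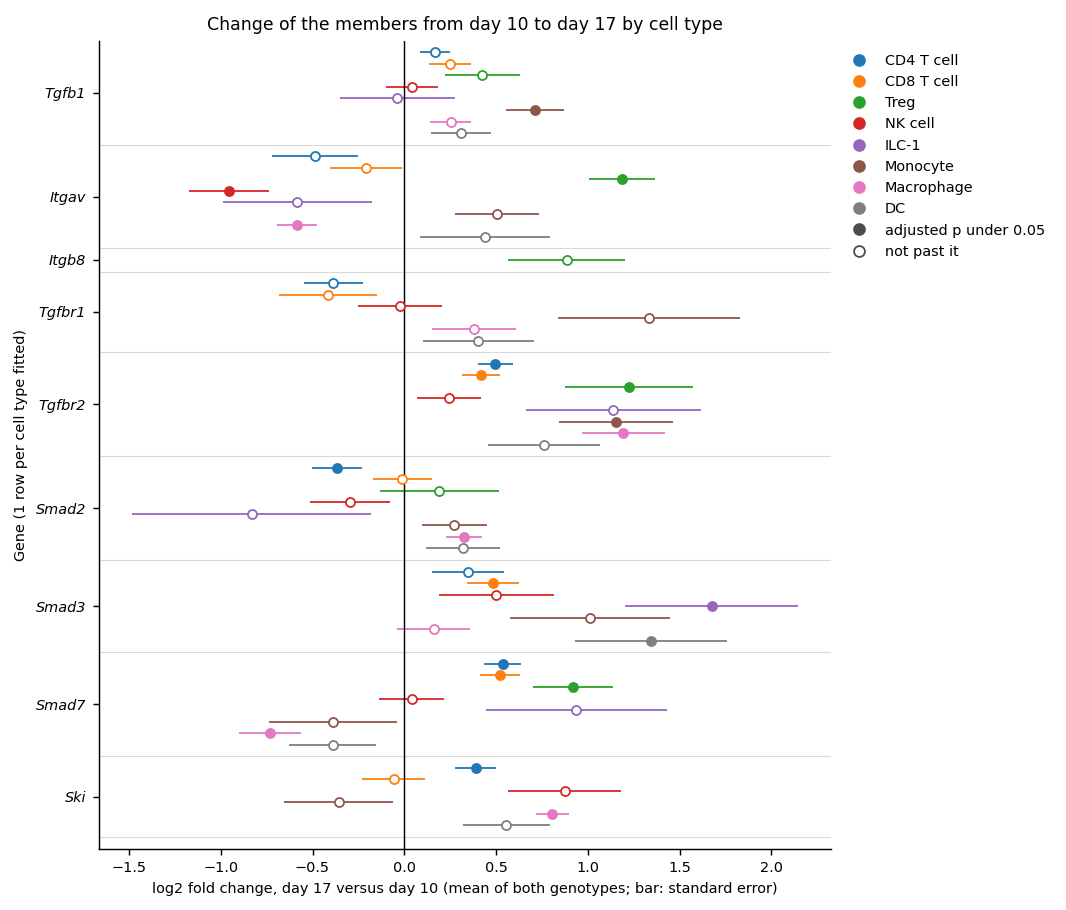
Log2 fold change from day 10 to day 17 (x axis, mean of both genotypes, bar is the standard error) of each gene in each cell type fitted, filled where the adjusted p was under 0.05. Tgfbr2 lies above 0 in 8 of 8 types and Smad3 in 7 of 7, whereas Itgav and Smad7 have filled points on both sides of 0.

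Of the ligand and the integrin, Tgfb1 passed the test in 1 of its 8 types, monocytes, with log2 fold changes above 0 in 7 of the 8; the difference between types was not tested. The monocyte grafts of day 17 read 435, 193 and 447 CPM in WT and 403, 340.3, 419.6 and 535 in Rnls mutant, against the day 10 values given above. They overlapped with day 10 in 1 WT graft at 193 (log2 fold change 0.71 ± 0.16, adjusted p = 0.00384, edgeR). The call was lost without WT day 17 replicate 1 (adjusted p = 0.0618, edgeR).

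Itgav moved in opposite directions between cell types. In Treg it read 202, 234, 286 and 247 CPM in WT day 10, 345, 212, 267 and 191 in Rnls mutant day 10, 508, 843 and 374 in WT day 17 and 427, 647 and 661 in Rnls mutant day 17. No day 17 graft overlapped with day 10, in either genotype (log2 fold change 1.19 ± 0.18, adjusted p = 1.25e-05, edgeR). Itgb8 in Treg differed by 0.88 ± 0.32 over the same days and did not pass the test (adjusted p = 0.0517, edgeR). In NK cells Itgav fell from 214, 233, 187 and 196 CPM (WT) and 155, 174, 291 and 198 (Rnls mutant) at day 10 to 109, 86.4, 185 and 57.9 (WT) and 62.2, 48.1, 131 and 194 (Rnls mutant) at day 17. The WT days did not overlap and the Rnls mutant days did (log2 fold change -0.96 ± 0.22, adjusted p = 0.00384, edgeR). In macrophages it fell from 51.4 to 74.7 CPM over the 8 day 10 grafts to 36.4 to 65.9 over the 8 day 17 grafts (-0.58 ± 0.11, adjusted p = 2.01e-04, edgeR).

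The difference between types was tested within grafts, by exact permutation of the day within genotypes, for 6 pairs of types. The pairs were chosen after the values were seen, because the gene was called in opposite directions in them. That choice favors low p-values, so they are no separate support for a difference between types. Relative to macrophages, Itgav in Treg gained 1.60 on the log2(CPM + 10) scale (14 grafts, adjusted p = 0.00122, exact permutation), and relative to NK cells it gained 2.26 (14 grafts, adjusted p = 0.00122, exact permutation). Treg markers (Foxp3, Il2ra, Ctla4 and Ikzf2) were higher in Treg at day 17 as well, with a summed level of 4102 to 5291 CPM at day 10 and 5631 to 7153 at day 17. Macrophage markers in Treg went from 10.5 to 74.0 CPM at day 10 to 75.1 to 118 in WT and 294 to 529 in Rnls mutant grafts at day 17. The part of either in the Itgav change was not tested.

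**Figure D4:**
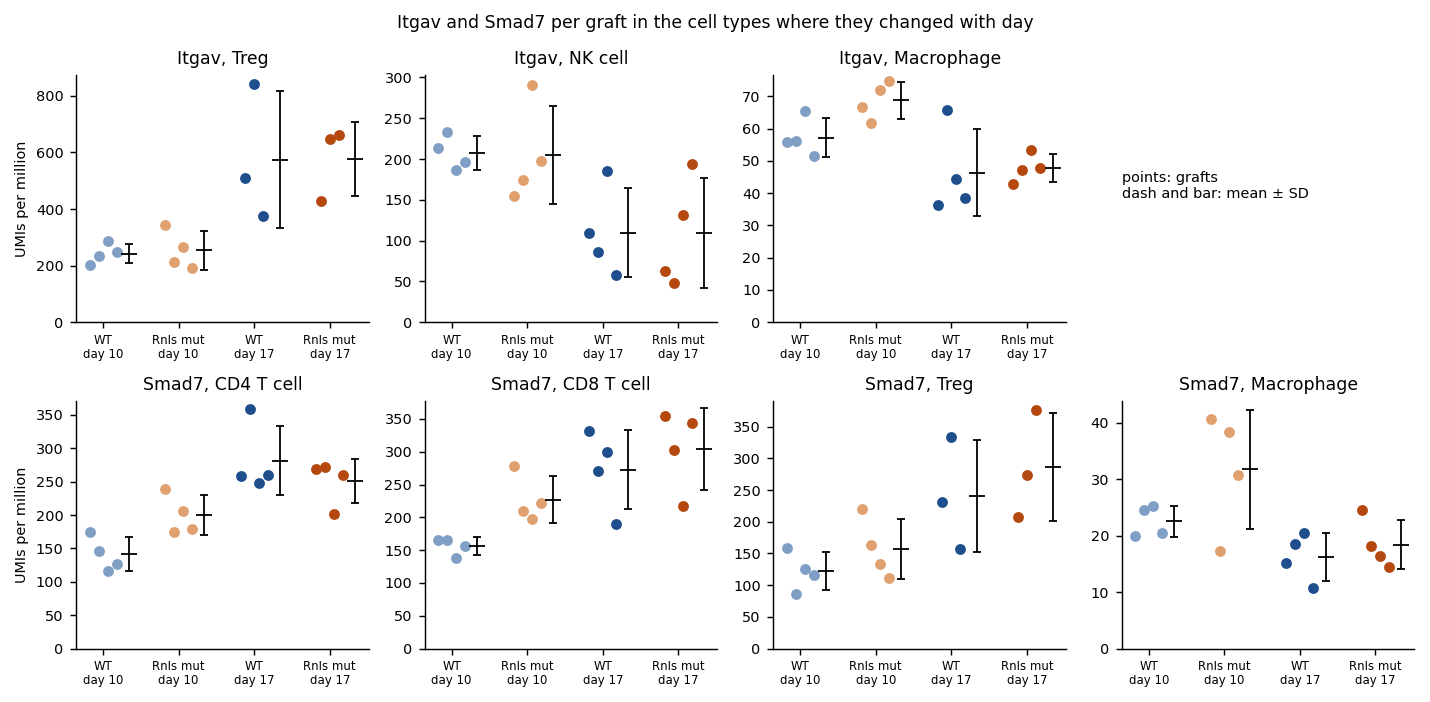
Itgav (upper row) and Smad7 (lower row) per graft in the cell types where they were called for day (y axes, CPM of UMIs; dash and bar are mean ± SD). Itgav is higher at day 17 in Treg and lower in NK cells and macrophages, and Smad7 is higher at day 17 in CD4 T cells, CD8 T cells and Treg and lower in macrophages.

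Tgfbr2 was called in 5 of 8 types, more than any other of the 9 genes. In CD4 T cells it rose from 124 to 160.3 CPM over the 8 day 10 grafts to 154 to 272 over the 8 day 17 grafts (log2 fold change 0.50 ± 0.09, adjusted p = 1.29e-04, edgeR); 1 WT day 17 graft at 154 lay below the highest day 10 graft. In CD8 T cells the WT grafts read 156, 145, 125 and 104 CPM at day 10 and 198, 200.1, 186 and 209.7 at day 17. The CD8 Rnls mutant grafts read 167, 157, 145 and 133 and then 210.4, 192, 209 and 244. The days did not overlap (0.42 ± 0.10, adjusted p = 0.00335, edgeR), although the call was lost without the low count filter (adjusted p = 0.0982, edgeR). In macrophages Tgfbr2 read 49.1, 47.3, 60.5 and 38.8 CPM in WT and 34.9, 58.8, 32.6 and 21.1 in Rnls mutant at day 10, and 169.7, 138, 62.4 and 84.4 in WT and 84.0, 99.5, 111 and 142 in Rnls mutant at day 17. Every day 17 macrophage graft was above every day 10 graft (1.19 ± 0.23, adjusted p = 4.95e-04, edgeR).

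Tgfbr2 also rose in Treg (1.23 ± 0.35, adjusted p = 0.0137, edgeR) and monocytes (1.15 ± 0.31, adjusted p = 0.0153, edgeR), from few UMIs. The Treg grafts held 2 to 17 Tgfbr2 UMIs each, and the call was lost without Rnls mutant day 17 replicate 1 or WT day 17 replicate 3. The monocyte call was lost without Rnls mutant day 17 replicate 2 or WT day 17 replicate 1 (adjusted p up to 0.35 for monocytes and 0.0904 for Treg, edgeR). Tgfbr1, its partner receptor, was called in none of 6 types, with log2 fold changes from -0.42 to 1.33; in monocytes 1 Rnls mutant day 17 graft stood at 341 CPM with 14 UMIs.

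The regions just before the Tgfbr2 and Itgav start sites are shown because Tgfbr2 had the same direction in every type while Itgav did not. RefSeq promoter windows on GRCm38.p6 were at hand for 7 of the 9 genes, in 8 windows of 250 bases. They were searched for CAGAC, the letters of a Smad binding element, on both strands (GTCTG on the other), for the longer palindrome GTCTAGAC, which overlaps the short motif in part, and for GTAAACA, a forkhead motif. Tgfbr2 (ENSMUSG00000032440) lies on the minus strand at chr9:116084293-116175360 (GRCm38, GENCODE vM21), and Itgav (ENSMUSG00000027087) on the plus strand at chr2:83724397-83806916. Capitals mark CAGAC in the following windows, chr9:116175364-116175613 (minus strand) and chr2:83724147-83724396 (plus strand), both upstream of the first exon of their gene.
Tgfbr2: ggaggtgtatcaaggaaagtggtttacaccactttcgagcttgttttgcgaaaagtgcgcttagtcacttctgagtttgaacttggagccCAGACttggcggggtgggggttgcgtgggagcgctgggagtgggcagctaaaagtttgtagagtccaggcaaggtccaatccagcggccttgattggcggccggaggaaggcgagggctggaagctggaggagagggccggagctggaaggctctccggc
Itgav: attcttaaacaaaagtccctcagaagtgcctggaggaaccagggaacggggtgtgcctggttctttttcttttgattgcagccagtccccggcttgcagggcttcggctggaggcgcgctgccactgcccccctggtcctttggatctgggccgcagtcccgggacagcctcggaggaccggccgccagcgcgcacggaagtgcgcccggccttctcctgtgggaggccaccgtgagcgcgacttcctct
CAGAC was present once in the Tgfbr2 window and not in that of Itgav. It was found in 3 of the 8 windows, against 42.2% of 32851 promoter windows of the same length. GTCTAGAC (0.167% of all windows) and GTAAACA (3.17%) were in none of the 8. A match is a description of the letters and not of binding.

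Smad3, a transducer of the receptor signal, had a log2 fold change above 0 in 7 of 7 types and was called in CD8 T cells (0.48 ± 0.14, adjusted p = 0.0116, edgeR), DC (1.35 ± 0.41, adjusted p = 0.0202, edgeR) and ILC-1 (1.67 ± 0.47, adjusted p = 0.0258, edgeR). In CD8 T cells the WT grafts read 89.0, 86.2, 76.3 and 88.8 CPM at day 10 and 136, 170.1, 103 and 89.9 at day 17, and the Rnls mutant grafts 75.6, 107, 122 and 69.5 and then 125, 135, 154 and 133. The day 17 grafts were higher in each genotype, WT narrowly. The CD8 call was lost without the low count filter and without WT day 17 replicate 1 or 2. The DC grafts held 0 to 17 Smad3 UMIs and the ILC-1 grafts 2 to 34, with 2 ILC-1 grafts per group; the DC call was lost without Rnls mutant day 17 replicate 2 and the ILC-1 call in DESeq2 and in 6 of the other alternatives.

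Smad2 differed in sign between types. It fell in CD4 T cells (-0.37 ± 0.14, adjusted p = 0.0345, edgeR) and rose in macrophages (0.32 ± 0.10, adjusted p = 0.0103, edgeR). The difference between the types was 0.59 on the log2(CPM + 10) scale (16 grafts, exact permutation p = 0.011), for a pair chosen by these opposite calls. The CD4 grafts read 95.3, 75.1, 67.2 and 56.2 CPM in WT day 10, 82.5, 84.7, 70.5 and 77.0 in Rnls mutant day 10, 55.2, 57.7, 60.0 and 94.4 in WT day 17 and 57.0, 78.7, 44.0 and 93.0 in Rnls mutant day 17. The days overlapped, and the call was lost in 8 of 23 alternatives, DESeq2 among them. In macrophages Smad2 read 43.0 to 65.0 CPM at day 10 and 61.1 to 95.2 at day 17.

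Smad7, the inhibitor of Tgfbr1, rose in CD4 T cells, CD8 T cells and Treg and fell in macrophages. Among the other lymphoid types it did not pass in NK cells (0.04 ± 0.18, adjusted p = 0.915, edgeR) or ILC-1 (0.94 ± 0.49, adjusted p = 0.206, edgeR). In CD4 T cells it read 175, 146, 117 and 126 CPM in WT day 10, 239, 174, 206 and 179 in Rnls mutant day 10, 258, 359, 248 and 259.6 in WT day 17 and 268, 271, 202 and 260.3 in Rnls mutant day 17 (log2 fold change 0.54 ± 0.10, adjusted p = 1.23e-04, edgeR). The WT days did not overlap, the Rnls mutant days did, and WT alone was called (0.82, adjusted p = 1.59e-04, edgeR) while Rnls mutant alone was not (0.25, adjusted p = 0.201, edgeR). That difference between genotypes did not pass its own test (adjusted p = 0.316, edgeR).

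In CD8 T cells the day 17 grafts read 331, 270.1, 299.5 and 189.8 CPM in WT and 354, 302, 217 and 343 in Rnls mutant, against the day 10 Smad7 values given above (0.52 ± 0.11, adjusted p = 4.88e-04, edgeR). NK cell markers, which include the granule protease Gzma, went in the same CD8 T cells from a summed 2734 to 4265 CPM at day 10 to 506 to 2437 at day 17, while macrophage markers went from 22.8 to 79.3 CPM to 120.1 to 609.9. The CD8 markers (Cd8a and Cd8b1) went from 683 to 891 CPM to 372 to 819 and Cd4 from 3.11 to 25.4 CPM to 30.0 to 227 in these cells, and the part of any of these lists in the Smad7, Tgfbr2 and Smad3 changes of CD8 T cells was not tested. In Treg Smad7 rose by 0.92 ± 0.22 (adjusted p = 0.00316, edgeR), a call lost without WT day 17 replicate 3 (adjusted p = 0.0676, edgeR).

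In macrophages Smad7 fell from 17.3 to 40.6 CPM over the day 10 grafts to 10.7 to 24.5 over the day 17 grafts (-0.73 ± 0.17, adjusted p = 0.00157, edgeR). Relative to macrophages, Smad7 gained 1.06 in CD4 T cells, 0.99 in CD8 T cells (each 16 grafts, adjusted p = 0.00122) and 1.28 in Treg (14 grafts, adjusted p = 0.00294) by exact permutation on the log2(CPM + 10) scale. These pairs, too, were chosen by their opposite calls. T cell markers summed to 9.31 to 18.4 CPM in macrophages at day 10 and 2.56 to 14.1 at day 17, against at least 4306 in CD4 T cells; their part in the fall of macrophage Smad7 was not tested.

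Ski, the nuclear co-repressor, rose in macrophages from 48.7, 54.5, 48.7 and 61.3 CPM (WT) and 49.9, 50.9, 40.7 and 51.9 (Rnls mutant) to the day 17 values given above, every one of which was higher (0.81 ± 0.09, adjusted p = 9.62e-07, edgeR). In CD4 T cells it rose by 0.39 ± 0.11 (adjusted p = 0.00703, edgeR).

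The makeup of the cell types changed between the days. In CD4 T cells macrophage markers went from 17.7 to 52.1 CPM at day 10 to 104 to 483.5 at day 17 and NK cell markers from 116 to 192 CPM to 18.6 to 107, and their part in the CD4 changes was not tested. CD4 cluster 8 made up 5.91% of CD4 T cells in WT day 10 grafts and 5.29% in Rnls mutant day 10 grafts, but 71.2% and 68.1% at day 17, whereas cluster 0 went from 61.7% and 57.6% to 11.4% and 6.31%. Within cluster 0, Smad7 averaged 131 CPM at day 10 and 187 at day 17 in WT grafts, with 2 grafts at day 17, and 202 and 109 in Rnls mutant grafts, so that the genotypes moved in opposite directions. Within cluster 8 it averaged 262 and 258.5 CPM in WT and 346 and 262 in Rnls mutant grafts. Over both genotypes cluster 8 stood at 304 CPM at day 10 and 260.1 at day 17, but 1 Rnls mutant day 10 graft with 13 cells read 666 CPM, and without it the day 10 mean was 250.5 CPM and the direction turned. For Ski the values were 73.6 and 55.1 CPM in cluster 0 and 122 and 115 in cluster 8. For Tgfbr2, cluster 0 averaged 141 and 118 CPM and cluster 8 averaged 183 and 234, so that of clusters 0 and 8 only cluster 8 had the direction of the whole. Smad2 was lower at day 17 in clusters 0 and 8. Clusters 7 and 22 had too few WT day 17 grafts to be averaged. In the Rnls mutant grafts of cluster 7, Tgfbr2 read 106.9, 151, 132.6 and 142 CPM at day 10 and 160.4, 192, 159.7 and 195 at day 17. Ski read 101, 83.6, 74.1 and 71.7 CPM and then 135, 120, 114 and 135 in the same grafts. Smad7 there read 170, 155, 190 and 173 CPM and then 321, 240, 91.3 and 315.

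**Figure D5:**
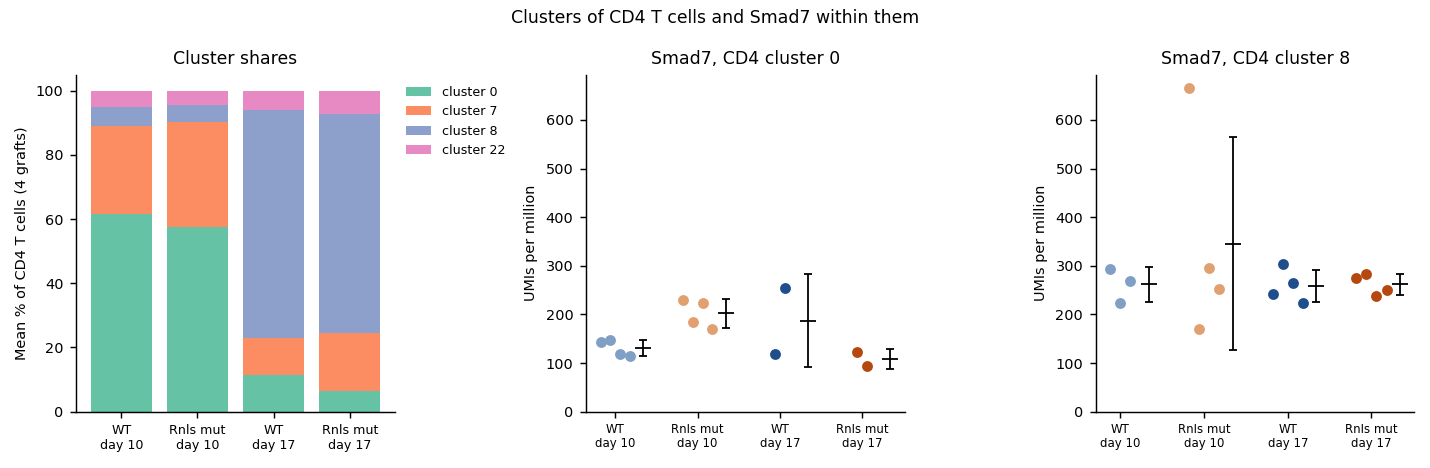
Left, mean share of CD4 T cells (y axis, %) in each of 4 clusters, by group of 4 grafts. Middle and right, Smad7 (y axis, CPM of UMIs) in clusters 0 and 8, 1 point per graft with at least 10 cells of the cluster (dash and bar are mean ± SD). The day 17 grafts of cluster 8, between 223.9 and 303 CPM, lie within the range of its day 10 grafts. That range ends at 666 CPM in 1 Rnls mutant graft of 13 cells, and the next highest day 10 graft read 295 CPM.

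The cluster 8 averages at day 10 rest on 13 to 43 cells a graft. In the other called types every cluster with at least 2 grafts per group had the direction of its type. Treg, NK cells and ILC-1 are 1 cluster each, so for them the cluster is the type and could not differ. DC and monocytes had 1 such cluster each, CD8 T cells and macrophages 2 each. Monocyte cluster 1 went from 20.5 to 30.2 CPM in Tgfbr2, a log2 ratio of CPM + 10 of 0.40 against 1.15 in the type. Over all its grafts cluster 1 averaged 23.8 CPM of Tgfbr2 and cluster 14, not compared by day, 97.0. Tgfb1 in cluster 1 went from 205 to 337 CPM (0.69 against 0.71). Smad3 in DC cluster 19 went from 13.4 to 26.7 CPM (0.65 against 1.35). CD8 Smad7 went from 201 to 296 CPM in cluster 3 and from 187 to 299 in cluster 9. Macrophage Tgfbr2 went from 22.8 to 39.8 CPM in cluster 4 and from 28.0 to 78.1 in cluster 5. Macrophage Itgav stood at 71.5 and 36.6 CPM in cluster 4 and at 77.2 and 74.7 in cluster 5, and macrophage Ski moved less within clusters (44.4 to 55.6 and 81.2 to 93.1) than in the type. Macrophage cluster 4 itself went from 51.5% (WT) and 67.9% (Rnls mutant) of macrophages to 7.31% and 4.89%, and the 4 remaining macrophage clusters had too few grafts at one of the days. Of these, cluster 2 went from 5.44% (WT) and 1.76% (Rnls mutant) of macrophages to 28.6% and 42.2%. Among the macrophage clusters it had the highest mean levels of Ski (119 CPM) and Tgfbr2 (158 CPM, each 11 grafts). The part of the cluster shares in the changes of these types was not tested.

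When the counts of every cell of a graft were pooled, 6 of the 9 genes were called for day (background 57.5%), Ski (0.77), Tgfbr2 (0.60), Tgfbr1 (0.35), Tgfb1 (0.24) and Smad2 (0.14) higher and Itgav (-0.33) lower. In these sums a change in the share of a cell type and a change within it cannot be told apart. Smad7 was not called there (-0.20 ± 0.15, adjusted p = 0.275, edgeR), while it was called higher in CD4 T cells, CD8 T cells and Treg and lower in macrophages.

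The other genes of the pathway were read from a list of 55 ligands, latency proteins, receptors, regulators, targets and BMP and activin genes. For genotype, 0 of their 201 combinations with a cell type were called over both days by edgeR (background 0.011%) and 0 by DESeq2. In edgeR 13 of the 201 had an unadjusted p under 0.05 (background 5.59% of all tests). For day, 55 of 201 were called (27.4%, 34 higher and 21 lower), close to the background of 28.0%, and 27 of these were in macrophages (17 higher, 10 lower, of 39; background 50.4%) and 0 of 17 in NK cells (background 13.1%). With 1 cell type per gene, the lowest adjusted p-values among the higher genes were those of Ldlrad4, which sequesters Smad2 and Smad3 from the receptor, in macrophages (1.42 ± 0.12, adjusted p = 1.16e-07, edgeR), of the BMP receptor Bmpr2 in macrophages (0.86 ± 0.11, adjusted p = 6.78e-06, edgeR) and of the Smad co-repressor Tgif1 in CD4 T cells (1.02 ± 0.14, adjusted p = 8.73e-06, edgeR). Among the lower genes they were those of Inhba, the activin A subunit, in macrophages (-3.66 ± 0.40, adjusted p = 8.53e-06, edgeR), which also fell in monocytes (-2.96 ± 0.39, adjusted p = 2.19e-05, edgeR), of Rgs16, a regulator of G protein signaling, in CD8 T cells (-0.85 ± 0.15, adjusted p = 3.58e-05, edgeR) and of Id2 in macrophages (-0.60 ± 0.12, adjusted p = 3.56e-04, edgeR).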

How the data were processed

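Single-cell 3′ RNA sequencing (10x Genomics, super-loaded reactions with hashtag antibodies) gave the counts analysed here. The authors deposited the UMI counts as a gene-by-cell table, not normalized, with library, hashtag, cluster and cell type per cell; per the labels, Cell Ranger and mm10 were used. Counts were summed per graft and cell type (at least 10 cells; at least 2 grafts per group to be fitted, which left 9 types) and tested over all genes with edgeR 4.0.16 in R 4.3.3 (TMM, filterByExpr, robust quasi-likelihood fit of the 4 groups, Benjamini-Hochberg adjustment per type, threshold 0.05). Log2 fold changes carry TMM scaling and CPM does not. Types were compared within grafts by two-sided exact sign-flip permutation tests on log2(CPM + 10). Stem-Progenitor cells had 1 WT day 17 graft and were not fitted; B and mast cells never reached 10 cells per graft. Doublets were not called; leaving out the 6% of cells highest in UMIs is an alternative. Scripts were tested on simulated data. Floors are 3 UMIs and cover counting error only. All 9 genes were described in every type; 3 similar genes per member (mean CPM of at least 10) and at most 3 pathway genes per direction, by adjusted p, were named by rule. The members, lists and tests were chosen with earlier results of these data known, and the day contrast within each genotype and the omission of 1 graft in CD4 cluster 8 were added after seeing the data. Positions and promoters come from GENCODE and RefSeq.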

Additional observations from a re-analysis of the deposited data

Results flagged for a closer look

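Of 86 groups of 4 grafts tested for a graft that stood apart from the others, 5 had one, and chance gives about 1 in 20; all 5 lay in CD4 T cells. Smad7 stood at 359 CPM in WT day 17 replicate 2 against 248 to 259.6 in the other grafts of that group, and at 202 in Rnls mutant day 17 replicate 3 against 260.3 to 271. Tgfbr2 stood at 160.3 CPM in Rnls mutant day 10 replicate 1 against 143 to 146, and at 181 in Rnls mutant day 17 replicate 4 against 233 to 238. Smad2 stood at 94.4 CPM in WT day 17 replicate 4 against 55.2 to 60.0.

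For 3 genes the change from day 10 to day 17 differed between cell types of the same grafts. On the log2(CPM + 10) scale Itgav gained 1.60 in Treg relative to macrophages and 2.26 relative to NK cells. Smad7 gained 1.06 in CD4 T cells, 0.99 in CD8 T cells and 1.28 in Treg relative to macrophages. Smad2 gained 0.59 in macrophages relative to CD4 T cells. The exact permutation tests of these 6 differences are in the report. The pairs of types were chosen after their values were seen, because the gene was called in opposite directions in them. The tests are therefore no separate support for a difference between types.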

How the results depend on the processing

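Of the 20 combinations called for day, 11 were called under every alternative tried, 9 were lost under at least 1, and 0 changed sign. The count of 20 was 10 in WT grafts alone, 8 in Rnls mutant grafts alone and 16 to 23 when 1 graft was left out. Pathway genes called for day numbered 55, 21 in WT alone, 35 in Rnls mutant alone and 47 to 69 when 1 graft was left out. For genotype, 0 members were called; with each day fitted alone 2 were called at day 10 (Smad7 in CD8 T cells and Tgfb1 in NK cells), and without the low count filter 1 at day 10 (Smad7 in CD8 T cells) and 1 at day 17 (Tgfbr1 in DC). Leaving out 1 graft gave 0 to 1 at day 17 (Itgav in CD4 T cells, without WT day 17 replicate 1). Without the 13-cell Rnls mutant day 10 replicate 1, chosen after seeing the data, the Smad7 log2 ratio of day 17 to day 10 in CD4 cluster 8 went from -0.22 to 0.052, and those of Tgfbr2, Ski and Smad2 kept their direction. Of neighbouring types, 4 pairs passed, 1 with at least 20 cells, 7 without the 6% of cells highest in UMIs, 0 in day 10 grafts alone and 0 in day 17 grafts alone, where 8 grafts remain; the type with the highest level changed for 5, 0, 1 and 3 of the 9 genes under these 4 settings, and the cause of the other shifts was not tested. The type with the highest thinned share of cells was the type with the highest CPM for 8 of 9 genes, and for 2 of 9 without thinning. With the hashtag number as a replicate block 20 were called for day, without Smad3 in ILC-1 (adjusted p = 0.12, edgeR) and with Tgfbr1 in monocytes (adjusted p = 0.0139, edgeR); WT and Rnls mutant grafts of the same number and day did not deviate together (r from -0.42 to 0.53, 8 pairs), so the numbers were not read as pairs. Depth limits Itgb8 outside Treg, and Smad3 in DC and ILC-1.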
